A study of Rattus norvegicus with 10 samples.

Results

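The family of miR-15, miR-16, miR-195 and miR-497 is a set of microRNAs that share a target-recognition sequence and come from a few small gene clusters. The members were chosen by their mature names, and all 6 were among the 765 rat miRNAs in the deposited table: miR-15a-5p, miR-15b-5p, miR-16-5p, miR-195-5p, miR-497-5p and miR-195-3p. The last is the opposite arm of the miR-195 hairpin and has another seed. The tissue sequenced for small RNA was hippocampus, taken from Wistar rats at 10 weeks of age. Sham-operated rats gave 5 libraries. The other 5 came from the 2-VO group, whose common carotid arteries were occluded on both sides, an operation that lowers blood flow to the brain. The sources used here do not say whether each library is a separate animal, so the p-values here rest on the spread between libraries, which may be technical. For the interval between operation and tissue collection, the sources used here give nothing. Hippocampus is bulk tissue, in which fewer cells of a type and less RNA per cell cannot be told apart.

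A microRNA guides the Argonaute protein to messenger RNAs, mostly through the seed near its 5′ end, and lowers their stability and translation. The miR-15/16 family is known for repressing cell-cycle and survival genes such as the D-type cyclins and Bcl2. Loss of the cluster of miR-15a and miR-16 in chronic lymphocytic leukaemia made it an early example of tumour-suppressor microRNAs. miR-195 has been studied in rats with carotid occlusion, since it can repress App and Bace1, which encode the amyloid precursor protein and an enzyme that cleaves it.

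The mature sequences are shown because the members are grouped by seed, and because miR-16-5p and miR-195-5p are close enough that their reads could be confused. They are from RefSeq (build GRCr8), 5′ to 3′, with the seed (bases 2 to 8) in capitals, and 5 of the 6 members matched (all except miR-15a-5p).
miR-16-5p: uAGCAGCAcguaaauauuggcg
miR-15b-5p: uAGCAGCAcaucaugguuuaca
miR-195-5p: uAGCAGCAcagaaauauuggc
miR-497-5p: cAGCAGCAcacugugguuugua
miR-195-3p: cCAAUAUUggcugugcugcucca
miR-322-5p: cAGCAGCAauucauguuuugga
miR-503-5p: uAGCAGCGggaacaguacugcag
miR-103-3p: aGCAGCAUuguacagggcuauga

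The 4 matched 5p members carried the seed AGCAGCA. Of the 690 listed miRNAs with a RefSeq sequence, 5 had this seed, and the fifth was miR-322-5p. miR-503-5p shared bases 2 to 7 only. In miR-103-3p and miR-107-3p the letters AGCAGCA began at base 1, so their seed is shifted by a base. The seed of miR-195-3p occurred in no other listed miRNA with a sequence.

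Past the seed the members differed. miR-16-5p and miR-195-5p were identical at 19 of the 21 bases compared, with the substitutions G10A and U11G, counted from 1 at the 5′ end with the base of miR-16-5p first. miR-15b-5p and miR-497-5p were identical at 16 of 22 bases. miR-16-5p and miR-497-5p were the least alike of the 6 pairs, at 11 of 22. No other row of the table lay within 0.05 on the log2 scale of a member in every library, so no member repeated another row.

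In GRCr8 the genes Mir15b (chr2:155555178-155555275) and Mir16 (chr2:155555327-155555421) lie 51 bases apart on the plus strand, inside the span of Smc4, which encodes a condensin subunit. Mir497 (chr10:55450171-55450239) and Mir195 (chr10:55450495-55450581) lie 255 bases apart on the plus strand, inside no other annotated gene, between Bcl6b and C10h17orf49. The authors' values were made on build rn6 and are joined here by name only. miR-16-5p is known to come also from a second hairpin beside miR-15a, and its reads cannot be split between both sources. The hairpins of the miR-195 and miR-497 cluster are shown with both mature arms in capitals, since the arms of miR-195 were both measured.
Mir195: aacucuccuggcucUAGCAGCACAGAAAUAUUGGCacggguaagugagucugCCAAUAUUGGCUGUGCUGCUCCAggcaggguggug
Mir497: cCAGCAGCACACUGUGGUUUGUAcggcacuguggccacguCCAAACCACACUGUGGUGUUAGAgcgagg

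Values are RPM, the reads of a miRNA scaled by the authors to a common library size. The total they divided by was 13032805 to 13850400 reads, of which 60.3% to 78.0% fell on listed miRNAs, the least in 2-VO replicate 3. A value of 0 stands for fewer than 10 reads. The neuronal miR-124-3p, miR-128-3p and miR-9a-5p, fixed to check the tissue label, were above 0 in every library.

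Within the family the levels spanned a wide range. miR-16-5p was the most abundant (mean of 249.7 RPM over 10 libraries, place 140 of 765), followed by miR-195-5p (123 RPM), miR-195-3p (48.3 RPM), miR-497-5p (42.4 RPM), miR-15b-5p (8.94 RPM) and miR-15a-5p (6.17 RPM). The 5 matched members have mature lengths of 21 to 23 bases, so levels need no length correction, but ligation and PCR can favour some sequences. Neighbours in this order, which was set on the same libraries, were compared within each library on the log2(RPM + 1) scale. The difference was in the same direction in 10 of 10 libraries for 4 of the 5 neighbour comparisons. Each of the 4 gave the smallest p possible with 10 libraries (exact two-sided sign-flip permutation test, p = 0.0020, adjusted p = 0.0024). The exception was miR-195-3p against miR-497-5p, with a mean log2 difference of 0.18 ± 0.25 (SD, n = 10, exact sign-flip permutation test, adjusted p = 0.057). miR-195-3p was the higher in 5 of 5 sham and 2 of 5 2-VO libraries, and the difference between the groups in this was not tested. Without 2-VO replicate 5 or 2-VO replicate 8 this comparison passed too (adjusted p = 0.047 and 0.020).

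Together the 5p members took 0.0593% ± 0.0051 of the listed RPM in sham, against 0.0631% ± 0.0078 in 2-VO (SD, n = 5 each). miR-16-5p held 59.7% ± 1.48 of the RPM of these 5p members in sham, against 56.3% ± 2.44 in 2-VO. The seed mate miR-322-5p is not counted in these shares. miR-195-5p held 27.7% ± 1.10 and 29.6% ± 1.53. miR-15a-5p and miR-15b-5p together with miR-497-5p made up the rest, with miR-15a-5p at 1.34% ± 0.21 and 1.51% ± 0.25.

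**Figure D1:**
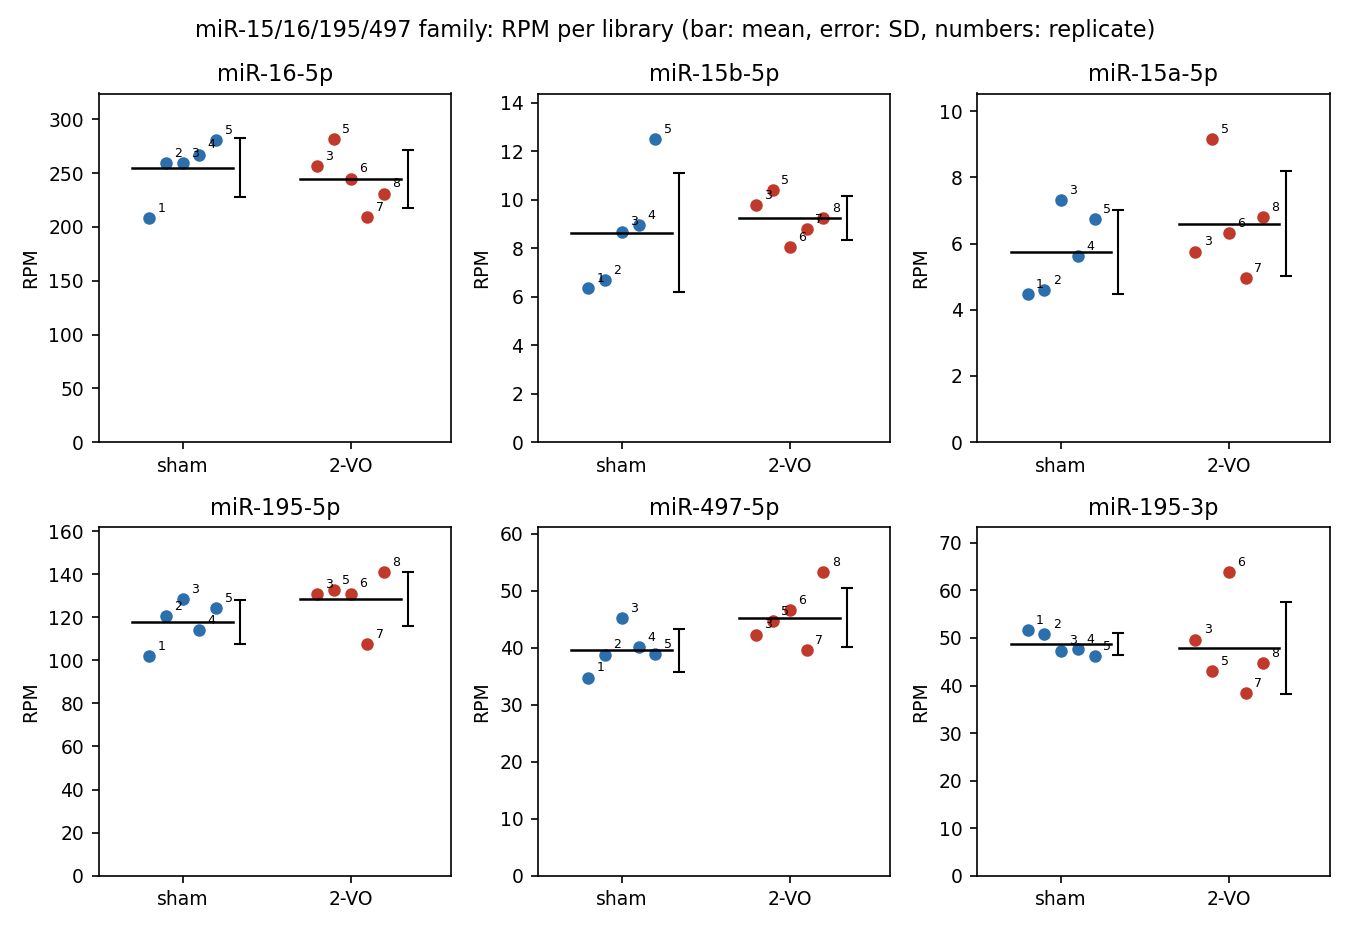
RPM of the 6 members in each library, with 1 panel per miRNA and a linear axis from 0. Points are libraries labelled with their replicate number, bars are group means and error bars the SD of 5 libraries. Sham (blue) and 2-VO (red) overlap in every panel, and sham replicate 1 is the lowest point of all 10 for each 5p member.

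Setting 2-VO against sham asks whether these miRNAs differ after carotid occlusion. None of the 6 members passed (limma's moderated test on log2(RPM + 1), Benjamini-Hochberg adjustment over 474 miRNAs, adjusted p = 0.77 to 0.96). Over all miRNAs tested, 0 of 474 (0%) passed at an adjusted p under 0.05 with limma, with voom or with an exact permutation test, and 24 (5.06%) had an unadjusted p under 0.05 with limma, 25 with voom and 32 with the permutation test. Among the members 0 of 6 had an unadjusted p under 0.05 with limma on the deposited RPM. After scaling to the listed miRNA reads 1 of 6 did (miR-497-5p, unadjusted p = 0.013), beside 35 of 474 miRNAs. With TMM or median-of-ratios factors 2 of 6 did (miR-497-5p and miR-195-5p), beside 38 and 37 of 474. The adjusted p of these members under the 3 scalings was 0.38 to 0.62 with limma. The groups overlapped for each member, where 0.633% of all miRNAs had groups that did not. The means of 4 members were higher in 2-VO (miR-497-5p, miR-15a-5p, miR-195-5p, miR-15b-5p) and those of 2 were lower (miR-16-5p, miR-195-3p), beside 37.8% higher over all miRNAs. The median log2 difference was 0.12 over the members and -0.051 over all miRNAs. After scaling to the listed miRNA reads, miR-195-3p turned from -0.043 to 0.014, so that 5 of 6 were higher, beside 50.6% of all miRNAs.

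miR-16-5p, the most abundant member, stood at 208, 259.5, 259, 267 and 281 RPM in sham replicates 1 to 5. In 2-VO replicates 3, 5, 6, 7 and 8 it stood at 256, 282, 245, 209 and 231 RPM. The groups covered the same range, with a low library in each. The log2 difference was -0.059 ± 0.11 (SE, limma adjusted p = 0.96), with a 95% interval of 0.81-fold to 1.13-fold. It was -0.13 without sham replicate 1 and -0.0046 without 2-VO replicate 7, the lowest library of each group. These values rest on 2782 to 3689 reads per library, so that counting error was 1.74% of the mean against a spread within groups of 10.9%.

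miR-15b-5p, which shares the Smc4 cluster with miR-16-5p, stood at 6.35, 6.67, 8.69, 8.95 and 12.5 RPM in the sham libraries. The 2-VO libraries had 9.77, 10.4, 8.06, 8.79 and 9.25 RPM. Sham replicate 5 was the highest and sham replicates 1 and 2 the lowest, so the 2-VO libraries lay inside the sham range. The log2 difference was 0.12 ± 0.16 (SE, limma adjusted p = 0.94, interval 0.86-fold to 1.38-fold), or 0.25 without sham replicate 5 and 0.031 without sham replicate 1. With 88 to 163 reads per library, counting error alone was 9.29% of the mean, beside a spread of 21.2%.

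miR-15a-5p, the other family member beside a miR-16 hairpin, had the lowest level. It stood at 4.48, 4.60, 7.32, 5.62 and 6.75 RPM in sham, against 5.76, 9.16, 6.31, 4.96 and 6.79 RPM in 2-VO. The highest value was in 2-VO replicate 5, and without it the log2 difference of 0.17 ± 0.17 (SE, limma adjusted p = 0.90) was 0.056. Counting error was 11.2% of the mean at 62 to 120 reads per library, and the interval of the fold change ran from 0.88 to 1.44.

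miR-195-5p stood at 102, 121, 128, 114 and 124 RPM in sham replicates 1 to 5. In 2-VO the values were 131, 133, 131, 107.5 and 141 RPM. In 2-VO, 4 libraries were above every sham library and replicate 7 was near the lowest sham value. The log2 difference was 0.12 ± 0.11 (SE, limma adjusted p = 0.87), with an interval of 0.93-fold to 1.28-fold. It was 0.072 without sham replicate 1 and 0.19 without 2-VO replicate 7.

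miR-497-5p, its partner in the cluster, stood at 34.7, 38.8, 45.1, 40.1 and 38.9 RPM in sham libraries. It stood at 42.3, 44.7, 46.6, 39.5 and 53.2 RPM in 2-VO libraries. The highest library was 2-VO replicate 8, and sham replicate 3 lay above 3 of the 2-VO libraries. Its log2 difference was 0.19 ± 0.11 (SE, limma adjusted p = 0.77, interval 0.96-fold to 1.35-fold), or 0.13 without 2-VO replicate 8. It was place 70 of 474 by p.

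miR-195-3p, the opposite arm of miR-195-5p, stood in sham at 51.6, 50.9, 47.3, 47.6 and 46.2 RPM. The 2-VO libraries had 49.7, 43.0, 63.8, 38.5 and 44.7 RPM, with both the highest and the lowest value of all 10 libraries among them. The SD was 2.38 RPM in sham, against 9.72 RPM in 2-VO, a difference that was not tested. The log2 difference in means was -0.043 ± 0.13 (SE, limma adjusted p = 0.96, interval 0.80-fold to 1.17-fold).

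**Figure D2:**
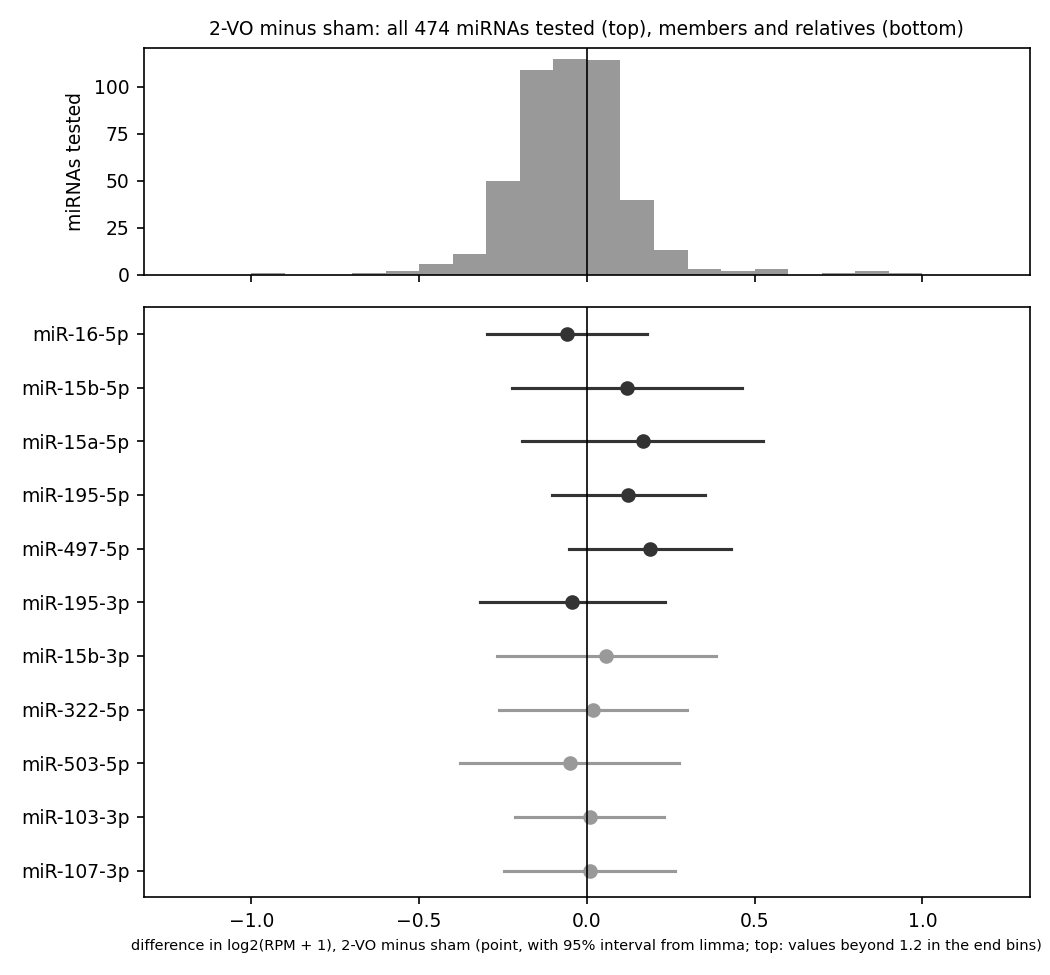
Difference in log2(RPM + 1), 2-VO minus sham. The top panel is a histogram over the 474 miRNAs tested, and the bottom panel shows the 6 members (dark) and 5 relatives (grey) as points with 95% intervals from limma. Every interval in the bottom panel holds 0.

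Ratios between members do not depend on the reads that make up the divisor, apart from the pseudocount of 1. A total of 5 ratios were compared, and 0 passed (exact two-sided permutation test, Benjamini-Hochberg over the 5, smallest p possible 0.0079). The smallest p was that of miR-195-5p over miR-16-5p, the members of different clusters that differ at 2 bases. The RPM ratio was 0.464 ± 0.029 in sham, against 0.528 ± 0.051 in 2-VO (SD, n = 5). Its log2 value was -1.10 in sham, against -0.92 in 2-VO, a difference of 0.18 (exact permutation p = 0.040, adjusted p = 0.20). All 5 of the 2-VO libraries lay above the sham median, but the groups overlapped, since 2-VO replicate 5 stood at -1.08 and sham replicate 3 at -1.01. 2-VO replicate 5 was the only 2-VO library within the sham range. Without it the groups no longer overlapped, so p was the smallest possible for that number of libraries. The difference was then 0.22 and passed (exact permutation test, adjusted p = 0.040). In the 11 other settings tried it did not pass.

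The ratio of miR-16-5p to miR-15a-5p was 45.5 ± 7.79 in sham, against 38.0 ± 5.67 in 2-VO, a log2 difference of -0.23 (exact permutation p = 0.10, adjusted p = 0.26), with all 5 of the 2-VO libraries below the sham median. That of miR-16-5p to miR-15b-5p was 30.7 ± 5.95 and 26.5 ± 2.51, a log2 difference of -0.18 (exact permutation p = 0.21, adjusted p = 0.32). Over the 10 libraries these ratios ran from 30.7 to 56.5 and from 22.4 to 38.9. The log2 ratio of miR-15b-5p over miR-15a-5p was 0.50 ± 0.21 in sham, against 0.45 ± 0.24 in 2-VO (difference -0.046, exact permutation p = 0.74). The steadiest ratio was miR-195-5p over miR-497-5p, at 2.99 ± 0.16 in sham, against 2.85 ± 0.18 in 2-VO. Its log2 difference was -0.065 (exact permutation p = 0.25, adjusted p = 0.32), and it ran from 2.65 to 3.20 over the 10 libraries.

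**Figure D3:**
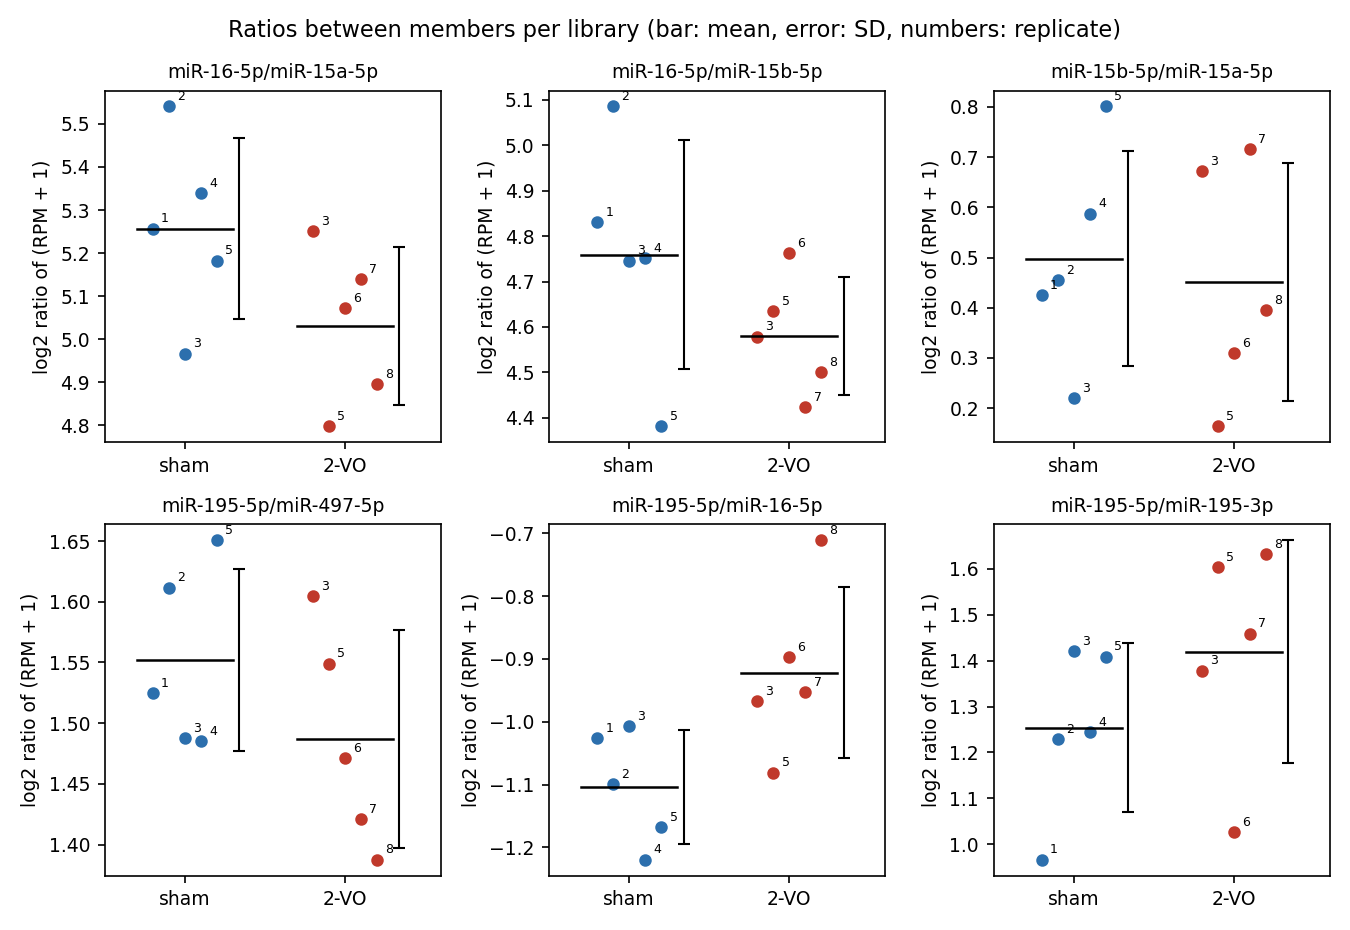
Log2 ratios of (RPM + 1) between members in each library, with the 5 ratios tested by permutation and the arm ratio of miR-195. Points are libraries with replicate numbers, bars are means and error bars the SD of 5 libraries, and axes do not start at 0. For miR-195-5p over miR-16-5p the 2-VO points lie above the sham median of -1.10, and for miR-16-5p over miR-15a-5p they lie below the sham median of 5.26. The groups overlap in every panel.

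The arms of the hairpins were unequal in different degrees. miR-195-3p held 29.4% ± 2.71 of the RPM of both miR-195 arms in sham, against 27.0% ± 3.48 in 2-VO (SD, n = 5). By the size of its log2 ratio of 5p to 3p, miR-195 was place 29 of 132 hairpins from the most balanced. For miR-15b, whose 3p arm stood at 1.04 to 2.13 RPM, the 3p share was 15.1% ± 2.96 and 14.8% ± 2.67. miR-16-3p was above 0 in 4 of 10 libraries, at most at 1.14 RPM, and miR-15a-3p and miR-497-3p were listed at 0 throughout. The log2 ratio of 5p to 3p differed by 0.17 ± 0.13 for miR-195 (SE, limma over 132 hairpins, adjusted p = 0.63) and by 0.062 ± 0.14 for miR-15b (adjusted p = 0.88). Of the 132 hairpins 0 (0%) passed with limma, with 15 at an unadjusted p under 0.05. Without sham replicate 5 the number that passed was 3, and without 2-VO replicate 3 it was 1, with neither hairpin of the family among them.

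Covariation across the 10 libraries was measured as the correlation of log2(RPM + 1), since groups of 5 are too small for a correlation within a group. All pairs of the 6 members and each member with the summed red blood cell miRNAs gave 21 relations, of which 1 passed (permutation test with 100000 resamples, Benjamini-Hochberg over 21). Values share the divisor of the library, and the median r over all pairs of the 339 miRNAs of at least 10 RPM was 0.36 as deposited and 0.040 after scaling to the listed miRNA reads. Scaled values are therefore given beside the r described below.

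The relation that passed was that of miR-195-5p with miR-497-5p, the miRNAs of the cluster on chromosome 10. Pearson's r was 0.86 (permutation p = 0.0011, adjusted p = 0.023), and Spearman's rho was 0.84 (permutation p = 0.0037, adjusted p = 0.075). After scaling to the listed reads r was 0.86 too. Without the 2 libraries farthest from the median of miR-195-5p, sham replicate 1 and 2-VO replicate 7, it was 0.84 (exact permutation p = 0.0099). With group means removed it was 0.83 (permutation test, adjusted p = 0.11). The adjusted p also missed the threshold in 5 of the 10 cases of leaving out 1 library, with r at 0.79 without sham replicate 1 (adjusted p = 0.23) and 0.84 to 0.86 without sham replicate 3 or 2-VO replicates 5, 6 and 8 (exact permutation tests, adjusted p = 0.051 to 0.080). Both miRNAs were lowest in sham replicate 1 and highest in 2-VO replicate 8.

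The arms of a single hairpin did not show such a relation. miR-195-5p and miR-195-3p had r = 0.14 and rho = -0.18 (permutation p = 0.71 and 0.63, adjusted p = 0.87 and 0.66), and r = 0.092 after scaling. The sign turned without 2-VO replicate 6 (-0.058) or 2-VO replicate 7 (-0.18). The library with the most miR-195-3p, 2-VO replicate 6, was in the upper part of the range for miR-195-5p, while sham replicate 1 had the least miR-195-5p and the second highest miR-195-3p. Of the 5 ratios above and the arm ratio of miR-195, the log2 SD was smallest for miR-195-5p over miR-497-5p, at 0.075 in the sham and 0.090 in the 2-VO group, beside 0.18 and 0.24 for the arms of miR-195.

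As deposited, the relations in the miR-15/16 clusters were weaker and did not pass. They involve miRNAs with few reads, at a counting error of 9.29% for miR-15b-5p and 11.2% for miR-15a-5p. For miR-195-5p and miR-497-5p counting error was 2.47% and 4.22%, and its part in r was not tested. miR-16-5p with miR-15b-5p gave r = 0.57 and rho = 0.58 (permutation p = 0.084 and 0.087, adjusted p = 0.29 and 0.31), or r = 0.70 after scaling. miR-16-5p with miR-15a-5p gave r = 0.61 and rho = 0.49 (permutation p = 0.063 and 0.15, adjusted p = 0.27 and 0.40), or r = 0.54 after scaling. Without sham replicate 1 and 2-VO replicate 7 the r as deposited were 0.47 and 0.27 (exact permutation p = 0.23 and 0.53). Leaving out 1 library at a time, they ran from 0.36 to 0.74 and from 0.47 to 0.74. With group means removed, miR-16-5p had r = 0.65 and rho = 0.82 with miR-15b-5p, and r = 0.72 and rho = 0.62 with miR-15a-5p. None of these passed (permutation test, adjusted p = 0.097 to 0.18), and rho of miR-195-5p with miR-497-5p was 0.76 there. Across clusters, miR-15a-5p with miR-15b-5p had r = 0.68 and rho = 0.62 (permutation p = 0.030 and 0.060, adjusted p = 0.21 and 0.26). miR-15a-5p with miR-195-5p had r = 0.73 and rho = 0.81 (permutation p = 0.016 and 0.0072, adjusted p = 0.17 and 0.075). Without sham replicate 1 and 2-VO replicate 5 these r were 0.54 and 0.66, and after scaling with all libraries they were 0.69 and 0.65. The similar sequences miR-16-5p and miR-195-5p had r = 0.54 and rho = 0.27 (permutation p = 0.10 and 0.45, adjusted p = 0.31 and 0.58), and r was -0.51 without sham replicate 1 and 2-VO replicate 7, and 0.61 after scaling with all libraries.

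**Figure D4:**
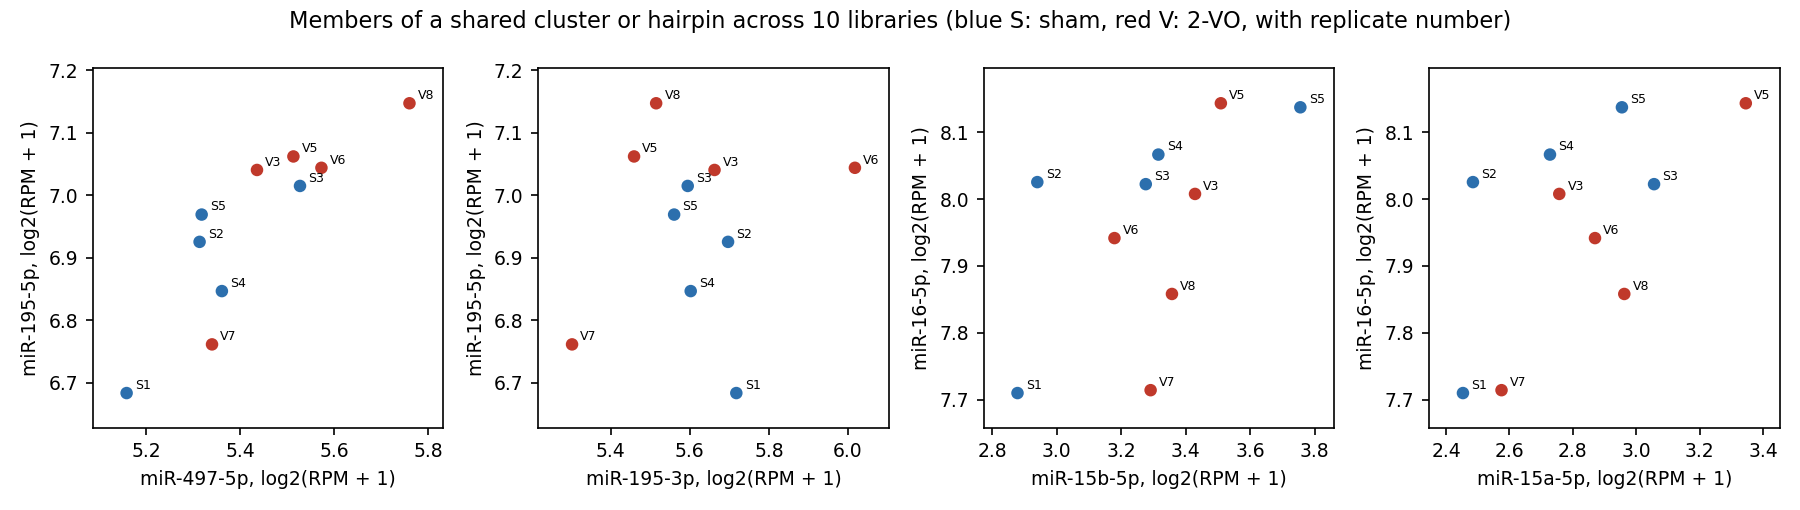
Log2(RPM + 1) of members from a shared cluster or hairpin across the 10 libraries, with sham in blue (S) and 2-VO in red (V) and the replicate number beside each point. miR-195-5p and miR-497-5p lie along a line (r = 0.86), while miR-195-5p and miR-195-3p, the arms of a single hairpin, do not (r = 0.14).

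The miRNAs most like each member across the libraries, among those with a mean of at least 10 RPM, are given as a description over 10 libraries. For miR-497-5p they were miR-23b-3p (r = 0.93), miR-195-5p (0.86) and miR-101b-3p (0.82), so its cluster partner was place 2 of 338. For miR-195-5p they were miR-23b-3p (0.89), miR-450b-5p (0.87) and miR-23a-3p (0.86), with miR-497-5p at place 4. For miR-16-5p they were miR-338-3p (0.82), miR-450a-5p (0.81) and miR-873-3p (0.80), with miR-15a-5p at place 30 and miR-15b-5p at place 43. miR-15b-5p was most like miR-135b-5p (0.78), miR-490-3p (0.77) and miR-26b-5p (0.77), and miR-15a-5p was most like miR-136-5p (0.82), miR-106b-5p (0.82) and miR-339-5p (0.81). After scaling to the listed reads, 2 of the 3 names stayed for each member except miR-16-5p, where 1 did (miR-338-3p), and miR-195-5p was place 3 for miR-497-5p. miR-497-5p was then place 7 for miR-195-5p, and for miR-16-5p the partners changed order, with miR-15b-5p at place 18 and miR-15a-5p at place 56.

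The relatives outside the chosen members were close to equal in both groups. miR-322-5p, an X-linked miRNA with the same seed, stood at 13.7 ± 1.87 RPM in sham, against 13.9 ± 1.94 RPM in 2-VO (SD, n = 5), and miR-503-5p of the same cluster at 2.51 ± 0.45 and 2.41 ± 0.55 RPM. miR-103-3p, with the shifted seed, was far more abundant than any member at 4306 ± 512 and 4322 ± 403 RPM, and miR-107-3p stood at 269.8 ± 30.4 and 272 ± 37.1 RPM. Of these 4 and miR-15b-3p, 0 of 5 passed (limma adjusted p = 0.96 to 0.99), with a median log2 difference of 0.0086. The signs of all 5 turned under at least 1 of the other settings tried.

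Since miR-16-5p is also abundant in blood cells, markers of other cell types are given beside it. The 4 red blood cell miRNAs (miR-451-5p, miR-144-3p, miR-144-5p, miR-486) were above 0 in all libraries and summed to 131 to 157 RPM in sham, against 84.9 to 219.7 RPM in 2-VO. Most of this sum was miR-486 (mean of 120 of 146 RPM over 10 libraries). Its log2 difference was -0.072, against 0.17 for miR-451-5p, 0.22 for miR-144-3p and 0.28 for miR-144-5p (limma adjusted p = 0.87 to 0.96). The lowest sum was in 2-VO replicate 3 and the highest in 2-VO replicate 8, while miR-16-5p stood at 256 and 231 RPM there. The correlation of miR-16-5p with this sum was -0.072 and rho 0.26 (permutation p = 0.84 and 0.47, adjusted p = 0.91 and 0.58). The other 5 members had r of -0.17 to 0.45 with it and did not pass either (adjusted p = 0.42 to 0.91), or -0.53 to 0.29 without the 2 libraries farthest from each member's median. The highest, that of miR-497-5p, ran from 0.0026 to 0.75 when each library was left out in turn. After scaling to the listed reads r was -0.36 for miR-16-5p, -0.59 for miR-195-3p and 0.17 for miR-497-5p, and none of the 6 members passed (permutation test, adjusted p = 0.19 to 0.97). Without the 2 libraries farthest from each member's median, the scaled r ran from -0.38 for miR-497-5p to 0.79 for miR-195-5p. The latter left out 2-VO replicates 3 and 5 (exact permutation p = 0.025, not adjusted) and was -0.17 with all libraries. The leukocyte and microglia list (3 of 4 above 0 in every library) summed to 241 to 284 RPM in sham, against 231 to 295 RPM in 2-VO, and the vessel wall list (4 of 4) to 18699 to 21179 and 15973 to 22630 RPM. Most of the leukocyte and microglia sum was miR-150-5p (mean of 228.5 of 262.7 RPM). Its log2 difference was -0.087, against 0.18 for miR-142-3p and 0.14 for miR-142-5p (limma adjusted p = 0.88 to 0.93), and miR-223-3p was below the filter. The choroid plexus list (3 of 3) summed to 548 to 949 RPM in the sham group and to 387 to 562 RPM in 2-VO. Most of this sum was miR-204-5p (mean of 539 of 564 RPM). Its log2 difference was -0.57, beside -0.56 for miR-211-5p and -0.33 for miR-448-3p, and none passed (limma adjusted p = 0.44 to 0.90). The part of these cell types in the levels of the members was not tested.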

How the data were processed

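The deposited table gives RPM values, as normalized by the authors, for 765 miRNAs in 10 libraries, per the file headers. Per the labels' protocols, Trizol RNA was ligated to adapters, amplified and size-selected with the NEBNext set, and no molecular identifiers are named. Tools named in the submitters' processing notes are bcl2fastq and BWA, with build rn6. How multiply matching reads were counted, and which reads form the divisor, was not given in the sources used here. All 4962 values above 0 were whole reads within 0.01 reads at 1 divisor per library, and the smallest stood for 10 reads, so lower counts are taken as listed at 0.

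From these, log2(RPM + 1) was compared for the 474 miRNAs averaging at least 1 RPM, in a single model with limma 3.58.1 in R 4.3.3 (mean-variance trend, two-sided, no covariate, Benjamini-Hochberg, threshold 0.05). Permutation tests used Python 3.11.15 and numpy 2.4.6. Scripts were tested on simulated data. Intervals (95%) are from the fitted spread of libraries. The named miRNAs are the members, opposite arms, miRNAs with the same bases 2 to 7, miR-103-3p and miR-107-3p, the 3 most alike for each 5p member, and cell markers. Members, lists and tests were chosen with earlier results of these data known. Negative-binomial count models were not run, since reads under 10 are not listed.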

Additional observations from a re-analysis of the deposited data

Results flagged for a closer look

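A library far from the other 4 of its group, by the gap to its nearest neighbour over the range of the group (Dixon's test), was found in 4 of 92 groups of 5 values, where chance gives about 4.6. On the log2(RPM + 1) scale, miR-16-5p in sham replicate 1 stood at 7.71, below the others at 8.02 to 8.14. miR-195-5p in 2-VO replicate 7 stood at 6.76 on the same scale, below 7.04 to 7.15. Neither was found on the RPM scale. The RPM ratio of miR-16-5p to miR-451-5p was 44.5 in 2-VO replicate 3, above 6.38 to 14.1 in the other 2-VO libraries. The summed choroid plexus miRNAs stood at 949 RPM in sham replicate 5, above 548 to 657 RPM in the other sham libraries.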

How the results depend on the processing

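Limits are the unlisted counts below 10 reads, a divisor that holds reads outside the table, and groups of 5. No member passed in any setting run (limma, voom or exact permutation, adjusted p = 0.38 to 0.999). The number of all miRNAs passing was 0 in each setting except with the replicate block, where it was 8, none of them a member. Replicate numbers 3 and 5 occur in both groups, but nothing in the labels pairs them, and deviations of same-numbered libraries correlated at -0.058 and -0.18. Every other number occurs in a single group, so with the replicate block only the libraries numbered 3 and 5 inform the group difference. The SE of miR-16-5p was 0.32 with this block, against 0.11 in the main fit. The replicate block turned the log2 differences of miR-15b-5p (-0.047), miR-15b-3p (-0.21), miR-103-3p (-0.27), miR-107-3p (-0.25) and miR-322-5p (-0.078), and it changed no other call. miR-195-3p turned to 0.014 when scaled to listed reads, 0.0094 with TMM factors and 0.011 with median-of-ratios factors. Scaling to listed reads also turned r of miR-195-3p with miR-497-5p (-0.053) and of the red blood cell sum with miR-15b-5p (-0.016) and miR-195-5p (-0.17). With group means removed, r of miR-195-5p with miR-497-5p was 0.83 and 0 relations passed. The cause was not tested for these changes. The edgeR test planned was not run, since low counts are not listed.

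Leaving out each library in turn gave ranges of the log2 difference of -0.15 to 0.029 for miR-195-3p, -0.013 to 0.14 for miR-15b-3p, -0.051 to 0.060 for miR-103-3p, -0.053 to 0.087 for miR-107-3p, -0.059 to 0.077 for miR-322-5p and -0.12 to 0.042 for miR-503-5p. The arm ratio of miR-15b ranged from -0.011 to 0.15, and the number of hairpins passing from 0 to 3. For miR-15b-5p over miR-15a-5p the range was -0.12 to 0.029, and for miR-195-5p over miR-16-5p it was 0.13 to 0.22, with 0 to 1 ratios passing. miR-195-3p over miR-497-5p ranged from 0.14 to 0.23, and 4 to 5 neighbours in the order passed. Among correlations, r of miR-497-5p ranged from 0.79 to 0.90 with miR-195-5p, -0.0094 to 0.61 with miR-15b-5p, -0.22 to 0.47 with miR-16-5p and -0.32 to 0.21 with miR-195-3p. That of miR-195-3p ranged from -0.45 to 0.034 with miR-15a-5p, -0.36 to 0.24 with miR-16-5p and -0.18 to 0.35 with miR-195-5p. With the red blood cell sum the ranges were -0.015 to 0.34 for miR-15b-5p, -0.18 to 0.11 for miR-16-5p and -0.17 to 0.62 for miR-195-5p. From 0 to 1 relations passed. The log2 difference ranged from -0.13 to -0.0046 for miR-16-5p, 0.072 to 0.19 for miR-195-5p and 0.13 to 0.24 for miR-497-5p. The other log2 differences, ratios and correlations of the members kept their direction in these settings.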

Other observations

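Sham replicate 1 had the lowest value of all 10 libraries for 5 of 5 5p members, where it was lowest for 16.9% of the 474 miRNAs tested. After scaling to the listed miRNA reads it was lowest for 3 of 5 (18.4% of all), and sham replicate 2 for the other two. miR-195-3p was not low there, at place 2 from the top as deposited and place 3 after scaling. The library that was lowest for most miRNAs as deposited, 2-VO replicate 3 (39.5% of 474), was lowest for 0 of 5 members. This was noticed after the values were seen, and no test was made.

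The ratio of miR-16-5p to the red blood cell miR-451-5p was 15.4 ± 4.02 in sham, against 16.8 ± 15.8 in 2-VO (SD, n = 5). It ran from 6.38 in 2-VO replicate 8 to 44.5 in 2-VO replicate 3, and miR-451-5p itself stood at 36.2 and 5.76 RPM in these.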
